A study of Rattus norvegicus with 18 samples.

Results

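The genes of fatty acid uptake and oxidation were described in rat muscle with experimental autoimmune myasthenia gravis (EAMG). The set held 36 genes chosen by function, from the carriers that bring fatty acids across the cell membrane to the mitochondrial uncoupling proteins. The choice was made with earlier results of these data known. Each gene was found by its symbol in the annotation of the arrays, and the probe set (a set of short probes for 1 transcript) with the highest mean log2 signal over all arrays stood for it. All 36 genes had such a probe set, among 14217 genes named on the arrays.

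EAMG is a rat model of myasthenia gravis, in which antibodies against the acetylcholine receptor (AChR) damage the junction of nerve and muscle. The EAMG groups were female Lewis rats, 6 to 8 weeks old at the start, immunized once with 40 µg of AChR from the electric organ of Torpedo in complete Freund's adjuvant that contained a further 0.5 mg of mycobacterium per rat. The control groups received the same adjuvant and mycobacterium without AChR, so that both treatments carried the adjuvant. The muscles taken 6 weeks later were the diaphragm (DIA), the extensor digitorum longus of the leg (EDL) and the extraocular muscles of the eye (EOM), and each of the 6 groups had 3 arrays. An array held the RNA of a pool of rats, 3 by the sample labels and 4 or 5 by the methods, so the pool is the unit of replication. By the methods the 3 muscles of a pool came from the same rats and the study was repeated to give the replicates, but which replicate number belongs to which repeat was not given. The p values rest on the spread between arrays within groups, each array taken as independent. For each probe set this spread was pooled over all 6 groups and drawn by limma towards that of other probe sets. The p values of a single muscle thus also rest on the arrays of the other muscles. In the average over muscles the 9 arrays of a treatment are by those methods not 9 separate pools, and the main fit does not allow for this.

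Muscle fibres take up long-chain fatty acids through membrane proteins, bind them to coenzyme A (CoA) and pass them as carnitine esters through the mitochondrial membranes. Inside, repeated turns of beta-oxidation cut them to acetyl-CoA, and electron transfer flavoprotein hands the electrons of the opening step to the respiratory chain. Many of the genes are known targets of the peroxisome proliferator-activated receptors (PPARs), and in rodent muscle several of them are known to rise with fasting and with high circulating fatty acids. Food intake and blood lipids were not analysed here. The study reported that the EAMG rats lost weight while control rats gained it. EAMG and weight loss therefore cannot be told apart in these comparisons.

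Signals were compared on the log2 scale with limma, and p values were adjusted over the 12238 probe sets whose highest signal among the 18 arrays was 400 or more, a minimum taken from the methods of the study. An adjusted p under 0.05 counted as passing. Of the 36 genes, 34 were tested. Acot1 and Ppara were not, since their highest signals were 86.8 and 108.7. The member just above the minimum was Ehhadh, with a highest signal of 476, and the next was Ppard, with 887.

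The arrays had similar overall brightness, with median signals of 129 to 163 and 27.9% to 31.1% of probe sets at or above 400. DIA EAMG replicate 2 and EOM EAMG replicate 2 stood apart in their spiked poly-A controls, with mean signals of 885 and 608 against 11604 to 28191 on the other 16 arrays. On DIA EAMG replicate 3 the GAPDH probe set at the 3' end was 2.66 times as bright as that at the 5' end, against 1.06 to 1.33 on the other 17 arrays. EDL EAMG replicate 2 had a summed signal of 277804 over 10 slow-fibre genes, against 89036 and 92520 on the other EDL EAMG arrays and 84104 to 101097 on the EDL control arrays. EOM EAMG replicate 3 had a summed signal of 20684 over 10 macrophage genes, against 8833 and 9047 on the other EOM EAMG arrays and 5635 to 11586 on the EOM control arrays. Its sum over 12 skeletal muscle fibre genes was 224682, against 366400 and 286309 on those EAMG arrays and 284398 to 303702 on the controls. All 12 of these fibre genes reached the minimum on at least 1 array.

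Averaged over DIA, EDL and EOM, 14 of the 34 genes were higher in EAMG and 1 was lower. That is 44.1% of the genes tested, where 20.4% of all probe sets passed (10.5% higher and 9.93% lower). The averages hold 9 EAMG and 9 control arrays. Since the set was chosen with earlier results of these data known, the shares in this paragraph describe it and are no independent test. The genes that rose covered most steps of the pathway, and the largest changes were in Ucp3, a mitochondrial uncoupling protein, and Mlycd, the enzyme that removes malonyl-CoA. The median log2 change of the 34 genes was 0.17, against 0.01 for all probe sets tested. The change lay above 0 for 23 of the 34 genes, against 51.1% of all probe sets. At an unadjusted p under 0.05 there were 17 such genes (34.7% of all probe sets), the further ones being Acsl3 and Ppard, both higher. In 7 of the 34 genes (20.6%) all 3 EAMG arrays lay above all 3 control arrays in each of the 3 muscles, against 2.42% of all probe sets, and in 0 they lay below them in each muscle, against 1.88%. The 7 were Mlycd, Ehhadh, Acsl4, Slc27a1, Decr1, Cpt1b and Acadl. Of these, Ehhadh entered the tests only through EDL EAMG arrays, so the minimum favoured its place in this count. With the minimum required on 3 arrays, Ehhadh was not tested and 13 of 33 genes were higher and 1 lower.

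**Figure D1:**
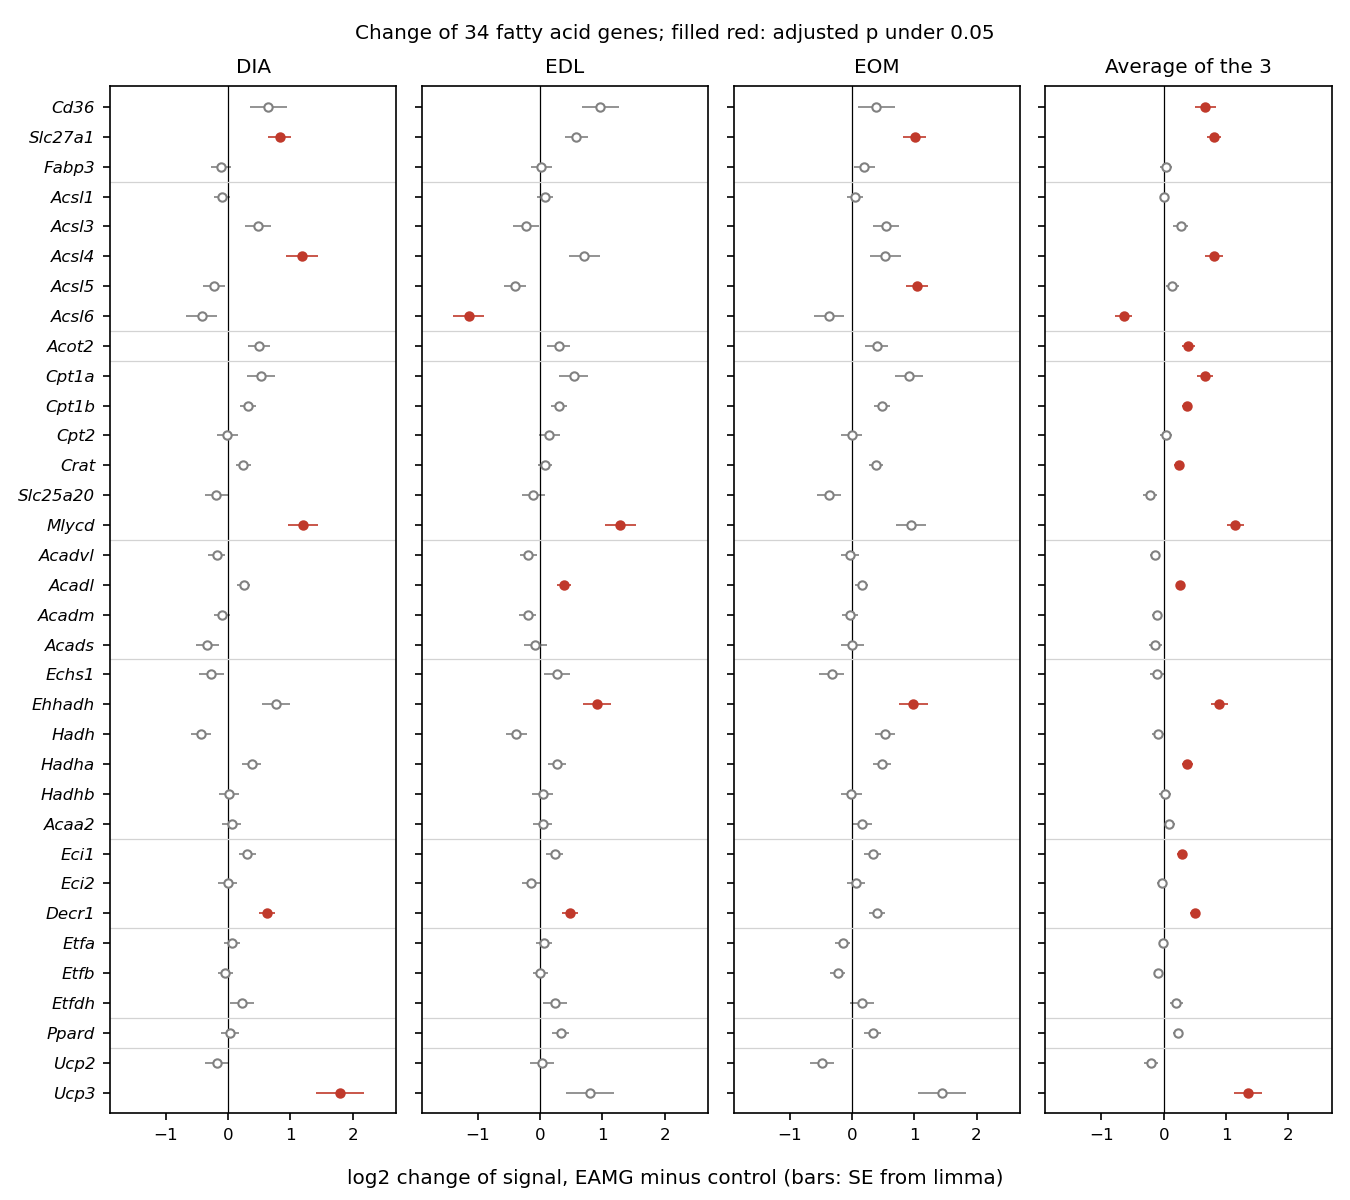
Log2 change of signal, EAMG minus control, for the 34 genes tested, in DIA, EDL, EOM and averaged over the 3 muscles. Points are limma estimates, bars are their SE, filled red points passed at an adjusted p under 0.05, and horizontal lines separate the steps of the pathway. In the averaged panel 14 genes passed to the right of 0 and Acsl6 to the left.

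Of the 3 uptake and binding genes, 2 rose and the fatty acid binding protein did not pass. Slc27a1 encodes a membrane fatty acid transport protein (FATP1) that is abundant in muscle. In DIA its signal was 1047, 1559 and 1287 in EAMG rats, against 688, 697 and 787 in control rats, the arrays being given here and throughout in the order of their replicate numbers. In EDL the values were 309.9, 495 and 327 with EAMG and 236, 246 and 259 in controls, and in EOM they were 1143, 1625 and 1522 with EAMG and 725, 639.8 and 748 in controls. The groups did not overlap in any of the 3 muscles, and of the EDL arrays EAMG replicate 2 alone reached the minimum of 400. Averaged over muscles, the log2 change was 0.80 (SE 0.11, adjusted p = 0.000209), and Slc27a1 also passed in DIA (0.82, adjusted p = 0.0285) and EOM (1.01, adjusted p = 0.0117). The DIA call was lost without DIA EAMG replicate 2 (adjusted p = 0.158) or replicate 3 (0.0819), and the EOM call without EOM EAMG replicate 2 (0.0539).

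Cd36 encodes the fatty acid translocase of the plasma membrane, which endothelial cells, adipocytes and macrophages carry as well as muscle fibres. Its DIA signals were 8478, 10347 and 10178 in EAMG rats and 6154, 4608 and 8202 in control rats. The EDL signals were 3204, 6317 and 7513 in EAMG rats and 2058, 2446 and 4028 in control rats, and the EOM signals 6137, 7162 and 5409 in EAMG rats and 4292, 5076 and 4860.4 in control rats. Both groups were apart in DIA and EOM and overlapped in EDL. Cd36 rose by 0.67 on the log2 scale on average (SE 0.17, adjusted p = 0.0137), and with both arrays of low poly-A signal left out it no longer passed. In whole muscle, more cells of a type and more RNA per cell cannot be told apart. In DIA the summed signal of 10 macrophage genes was 9659 to 13277 in EAMG rats and 6344 to 9001 in control rats, without overlap, and its part in the Cd36 change was not tested. Fabp3, the heart and muscle fatty acid binding protein of the cytosol, had a log2 change of 0.03 (SE 0.10, adjusted p = 0.834) on average and between -0.12 and 0.20 in the single muscles.

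The 5 acyl-CoA synthetases, which join a fatty acid to CoA, differed among themselves: Acsl4 rose, Acsl6 fell and Acsl5 rose in EOM. Acsl4 is the member of the family that prefers arachidonic acid. Its signal in DIA was 1077, 2629 and 2023 in EAMG rats, against 830.5, 779 and 753 in control rats. In EDL, EAMG rats had 1402, 1844 and 2331 and control rats 1009.8, 1025 and 1325. In EOM, EAMG rats had 1208, 1271 and 1112 and control rats 903, 713 and 867. No EAMG array overlapped the control arrays of its muscle, and in DIA replicate 1 was well below the other EAMG arrays. On average the log2 change was 0.81 (SE 0.15, adjusted p = 0.00182), with a call of its own in DIA (1.19, adjusted p = 0.0252) that was lost without DIA EAMG replicate 2 (adjusted p = 0.130) or replicate 3 (0.0846).

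Acsl6, best known as the synthetase of brain, was the single gene of the set that fell. EDL signals were 2218, 1316 and 1478 in EAMG rats and 3644, 3359.8 and 3818 in control rats, with no overlap. DIA signals were 649.8, 306 and 574 in EAMG rats and 634, 605 and 723 in control rats. EOM signals were 1045, 998 and 1091 in EAMG rats and 1074, 1345 and 1691 in control rats. In DIA and EOM the highest EAMG array lay above the lowest control array. The log2 change was -1.15 in EDL (SE 0.25, adjusted p = 0.0163) and -0.65 on average (SE 0.14, adjusted p = 0.00608). Without EDL EAMG replicate 2 the EDL change was -0.99 and did not pass (adjusted p = 0.0720).

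Acsl5, a synthetase of the endoplasmic reticulum and mitochondria, was higher in EAMG in EOM, where the signals were 1137, 844 and 1149.6 in EAMG rats and 539, 529 and 446 in control rats. In DIA they were 462, 519.9 and 484 in EAMG rats and 599.9, 645 and 481 in control rats. In EDL they were 288, 245 and 193 in EAMG rats and 368, 329 and 257 in control rats. The Acsl5 groups were apart in EOM and overlapped in DIA and EDL, and all 6 EDL signals were under the minimum of 400. The log2 change in EOM was 1.04 (SE 0.18, adjusted p = 0.00841), against -0.23 in DIA and -0.40 in EDL. The change in EOM minus that in EDL was 1.44 (SE 0.25, adjusted p = 0.0413), and the change in EOM minus that in DIA was 1.27 (SE 0.25, adjusted p = 0.17), which did not pass. A list for the lipid glands of the orbit held 8 genes, 2 of them under the minimum on all arrays. Its summed EOM signal was 12609 to 14190 in EAMG rats, against 6279 to 8234 in control rats. In the other control muscles the sum was 9233 to 21687 in DIA and 8113 to 9852 in EDL, so it was not higher in control EOM. The part of this list in the Acsl5 result was not tested. Acsl1, the main synthetase of muscle, had an averaged log2 change of 0.01 (SE 0.07, adjusted p = 0.939), and Acsl3, known from lipid droplets, one of 0.27 (SE 0.12, adjusted p = 0.125). In EOM the Acsl3 signals were 1275, 1511 and 1529 in EAMG rats, all above the 896, 1073 and 968 of control rats.

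Acyl-CoA thioesterases release the fatty acid from CoA again. Acot2, the mitochondrial form, had signals of 2219.6, 2338 and 2838 in EAMG rats and 2006, 1343 and 1961 in control rats in DIA. In EDL it had 968, 1609 and 1208 in EAMG rats and 1012, 898 and 1113 in control rats, and in EOM 1588, 1594 and 1578 in EAMG rats and 1190.3, 1133 and 1301 in control rats. In DIA and EOM the EAMG arrays stood above the controls, and in EDL the groups overlapped. Acot2 rose by 0.40 on average (SE 0.10, adjusted p = 0.0161). A second Acot2 probe set gave an averaged change of -0.07 (SE 0.13, adjusted p = 0.749), so the probe sets of this gene disagreed. Acot1, the cytosolic form, is a close copy of Acot2, and whether the probes tell both genes apart was not tested.

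The carnitine shuttle and its control held 6 genes, of which 4 rose and 0 fell. The largest change was in Mlycd, malonyl-CoA decarboxylase, which breaks down the natural inhibitor of carnitine palmitoyltransferase 1. Its DIA signal was 2181, 3118 and 2851 in EAMG rats, against 1083, 980.1 and 1498 in control rats. In EDL, the values were 1169.9, 1908 and 2362 in EAMG rats, against 685, 674 and 779 in control rats. In EOM, the values were 1223, 1692 and 1391 in EAMG rats, against 611, 719 and 911 in control rats. Every EAMG array was above every control array of the same muscle. Over all muscles the log2 change was 1.15 (SE 0.14, adjusted p = 0.000117), a fold of 2.22, and the changes in DIA (1.20, adjusted p = 0.0193) and EDL (1.29, adjusted p = 0.00812) passed on their own. The DIA call was lost without DIA EAMG replicate 2 (adjusted p = 0.101) or replicate 3 (0.0633).

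Carnitine palmitoyltransferase 1, which makes the carnitine ester at the outer mitochondrial membrane, has a muscle form, Cpt1b, and a liver form, Cpt1a, and both rose. For Cpt1b the DIA signals were 11612, 13028 and 12822 in EAMG rats and 9406, 9502 and 11067 in control rats. Its EDL signals were 8079.9, 9953 and 9282 in EAMG rats and 6922, 7709 and 7553 in control rats, and its EOM signals 8038, 10708 and 7706 in EAMG rats and 6193, 6021 and 6599 in control rats. The groups were apart in all 3 muscles, by a small step in DIA and EDL, and the averaged log2 change was 0.37 (SE 0.07, adjusted p = 0.00375). For Cpt1a the DIA signals were 815, 904 and 984 in EAMG rats and 684, 552 and 642 in control rats, and the EOM signals 1329, 993 and 1035 in EAMG rats and 589, 558 and 621 in control rats. In EDL, where Cpt1a was dimmest, they were 339.7, 572 and 254 in EAMG rats and 274, 293 and 200.4 in control rats. The Cpt1a groups were apart in DIA and EOM and overlapped in EDL, and the averaged log2 change was 0.66 (SE 0.13, adjusted p = 0.00353).

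Crat, which moves short acyl groups between CoA and carnitine, rose by a log2 of 0.24 on average (SE 0.07, adjusted p = 0.0205), and did not pass with both arrays of low poly-A signal left out. Its signals in DIA were 5868, 6024 and 5858 in EAMG rats and 5062, 4463 and 5503 in control rats. In EDL they were 6052, 5589 and 7066 in EAMG rats and 5731, 5509.9 and 6436 in control rats, and in EOM 7164, 7557 and 6536 in EAMG rats and 5275, 5146 and 5809.8 in control rats. Only in EDL did the groups overlap. Cpt2, which restores the CoA ester on the inner side, and Slc25a20, the carnitine-acylcarnitine carrier of the inner membrane, did not pass. Their averaged log2 changes were 0.04 (SE 0.10, adjusted p = 0.787) for Cpt2 and -0.22 (SE 0.11, adjusted p = 0.154) for Slc25a20. In EOM the Slc25a20 signals were 2880.5, 3228 and 2958 in EAMG rats and 3857, 3784 and 4065 in control rats, all EAMG arrays being below the controls.

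**Figure D2:**
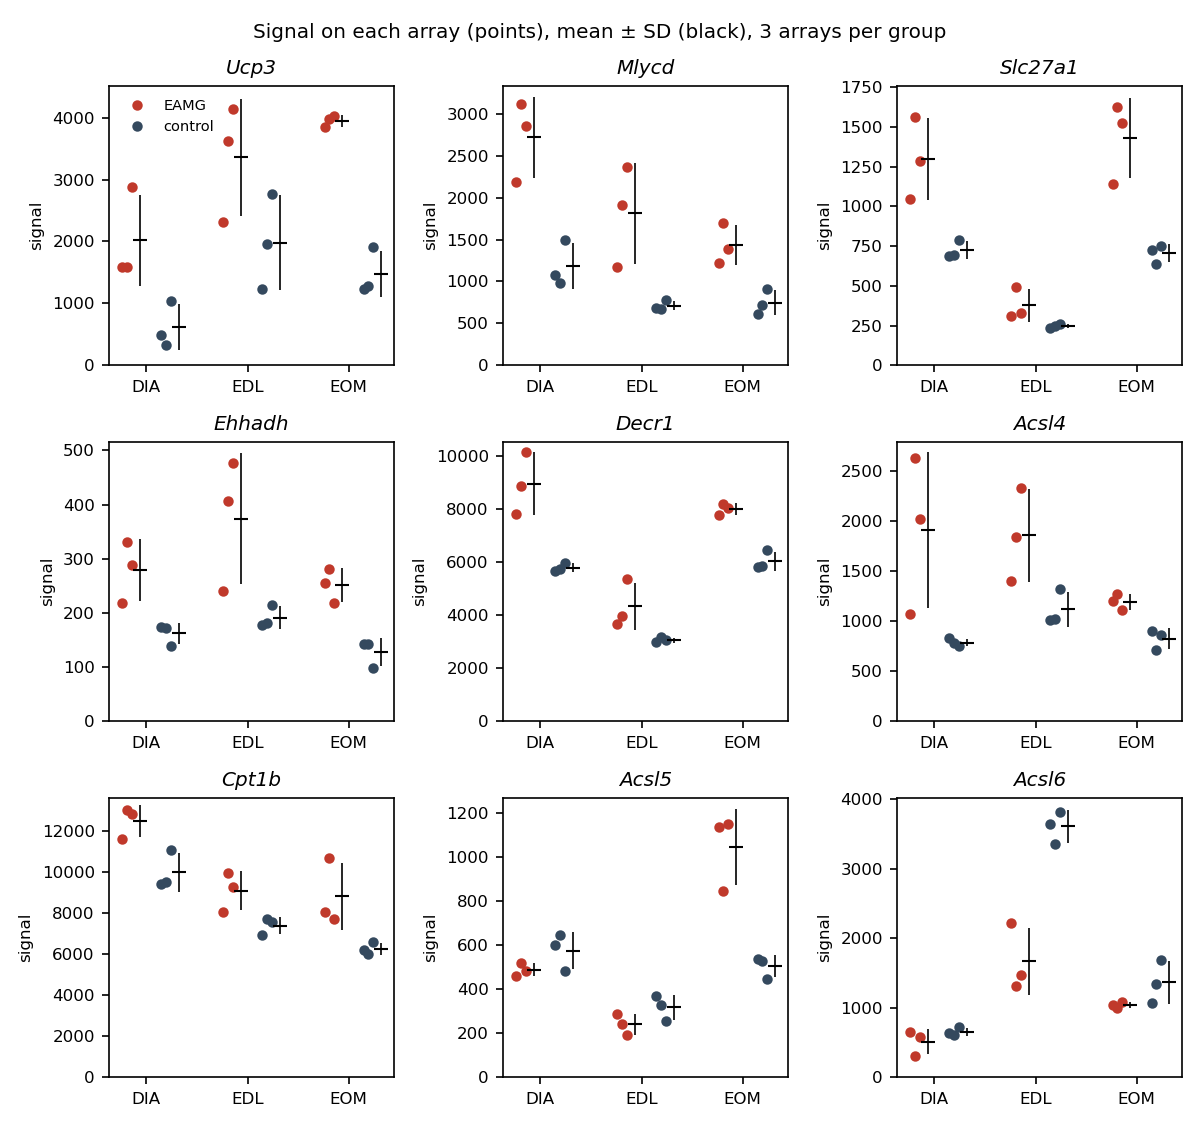
Signal of 9 genes on each array (linear scale from 0), with EAMG in red left of control in blue in each muscle. Points are single arrays and black marks are the mean ± SD of 3 arrays. The EAMG points stand above the control points in all 3 muscles for Mlycd, Slc27a1, Ehhadh, Decr1, Acsl4 and Cpt1b, in EOM for Acsl5, and below them in EDL for Acsl6.

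The acyl-CoA dehydrogenases carry out the opening oxidation for chains of different length, and 1 of the 4 rose. Acadl, the long-chain form, had DIA signals of 16819, 17689.6 and 19849 in EAMG rats and 15119.8, 15218 and 15324 in control rats. EDL signals were 11895, 15422 and 14817 in EAMG rats and 10543, 10789 and 10742 in control rats, and EOM signals 15543, 15187 and 13977 in EAMG rats and 13644, 12629 and 13779 in control rats. The groups did not overlap in any muscle, and the step was smallest in EOM. The averaged log2 change was 0.26 (SE 0.06, adjusted p = 0.00831), and the change in EDL was 0.38 (adjusted p = 0.0438), which did not pass without EDL EAMG replicate 2 (adjusted p = 0.157) or with both arrays of low poly-A signal left out (0.0529). The very-long-chain, medium-chain and short-chain forms had averaged log2 changes of -0.13 for Acadvl, -0.11 for Acadm and -0.14 for Acads, with adjusted p of 0.249, 0.315 and 0.38. In EDL the Acadvl signals were 3199, 3751 and 3768 in EAMG rats, all below the 3933, 3826 and 4461 of control rats.

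Of the 6 genes for hydration, the second oxidation and thiolysis, 2 rose. Ehhadh encodes a bifunctional enzyme that catalyses hydration and the second oxidation in peroxisomes. Its DIA signals were 218, 331 and 288 in EAMG rats and 175, 172 and 139.9 in control rats. In EDL, the signals were 240.1, 406 and 476 in EAMG rats and 178, 181 and 215 in control rats, and in EOM 255, 281 and 218 in EAMG rats and 142, 144 and 98.5 in control rats. No groups overlapped within a muscle. Ehhadh reached 400 on EDL EAMG replicates 2 and 3 and on no other array, so it entered the tests through the group in which it was highest, and its EDL change (0.91, adjusted p = 0.0315) is a description rather than a test. On average it rose by 0.89 (SE 0.13, adjusted p = 0.000529), and this call held with no signal minimum (adjusted p = 0.00505). Its EOM call (0.99, adjusted p = 0.0475) was lost with no minimum (0.198) and with both arrays of low poly-A signal left out (0.154).

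Hadha and Hadhb encode the alpha and beta subunits of the mitochondrial trifunctional protein, which handles long chains. Hadha signals in DIA were 6761, 8779 and 7609 in EAMG rats and 5551, 5655 and 6599 in control rats. In EDL, Hadha had 4377, 4795 and 5756 in EAMG rats and 3662, 4377 and 4235 in control rats, and in EOM 7796, 10652 and 7915 in EAMG rats and 6317, 6342 and 6060.1 in control rats. The Hadha groups were apart in DIA and EOM and overlapped by 1 EAMG array in EDL. The averaged log2 change of Hadha was 0.38 (SE 0.08, adjusted p = 0.00643). Hadhb had 17952, 16398 and 21927 in EAMG rats and 20602, 15862 and 19283 in control rats in DIA, overlapping as in the other muscles, and its averaged change was 0.01 (SE 0.09, adjusted p = 0.927). The difference between both subunits was not tested. In RefSeq on the build GRCr8 both genes start back to back, and their 300-base windows around the start (250 bases before to 50 after it) share 200 bases. The window of Hadha, chr6:31907551-31907850 on the plus strand, is shown because a single stretch of DNA lies between both starts, and is printed without capitals, since it holds no copy of the receptor motif AGGTCA described with Ucp3:
Hadha: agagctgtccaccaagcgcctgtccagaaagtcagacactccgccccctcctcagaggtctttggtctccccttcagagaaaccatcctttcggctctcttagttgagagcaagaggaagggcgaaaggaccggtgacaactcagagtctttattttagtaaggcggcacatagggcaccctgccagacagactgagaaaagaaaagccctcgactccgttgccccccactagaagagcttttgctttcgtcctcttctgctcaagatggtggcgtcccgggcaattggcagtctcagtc

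The other genes of these steps did not pass on average. Hadh, the short-chain hydroxyacyl-CoA dehydrogenase, had opposite signs in different muscles. Its DIA signals were 8122, 5757 and 8084 in EAMG rats and 10314, 8381 and 10779.5 in control rats, and its EDL signals 4064, 3800.1 and 4857 in EAMG rats and 4952, 5228 and 6363 in control rats. In EOM it had 2461, 2965 and 3224 in EAMG rats and 2069.6, 1906 and 1982 in control rats. All EAMG arrays were below the controls in DIA and EDL and above them in EOM. The log2 changes were -0.43 in DIA, -0.38 in EDL and 0.53 in EOM, with adjusted p of 0.151, 0.17 and 0.13. The change in EOM minus that in DIA was 0.96 (SE 0.23, adjusted p = 0.284), and the change in EOM minus that in EDL was 0.91 (SE 0.23, adjusted p = 0.161), so neither difference passed. Echs1, the short-chain enoyl-CoA hydratase, had an averaged log2 change of -0.11 (adjusted p = 0.547), and Acaa2, a mitochondrial thiolase, one of 0.09 (adjusted p = 0.502).

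Unsaturated fatty acids need auxiliary enzymes that shift or reduce their double bonds, and 2 of these 3 genes rose. Decr1, the mitochondrial 2,4-dienoyl-CoA reductase, had DIA signals of 7803, 8869 and 10152 in EAMG rats and 5647, 5737 and 5958 in control rats. The EDL values were 3679, 3955 and 5339 in EAMG rats and 2970.4, 3163 and 3045 in control rats, and the EOM values 7753, 8191 and 8046 in EAMG rats and 5812, 5835 and 6439 in control rats. The groups were well apart in all 3 muscles, and the averaged log2 change was 0.50 (SE 0.07, adjusted p = 0.000505). The change passed in DIA (0.62, adjusted p = 0.0226) and EDL (0.48, adjusted p = 0.0404). Without EDL EAMG replicate 3, the brightest of its group, the EDL change was 0.32 and did not pass. The DIA call was lost without DIA EAMG replicate 2 (adjusted p = 0.0912) or replicate 3 (0.0846), and the EDL call without EDL EAMG replicate 2 (0.0718) or with both arrays of low poly-A signal left out (0.0509).

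Eci1, the mitochondrial enoyl-CoA isomerase, rose by 0.29 on average (SE 0.08, adjusted p = 0.0179). Its signals were 7129, 7939.6 and 9053 in EAMG rats and 6652, 5674 and 7149.7 in control rats in DIA, and 3717, 4448 and 5246 in EAMG rats and 3702, 3611 and 3995 in control rats in EDL. In EOM they were 4669, 4729 and 5259 in EAMG rats and 4242, 3686 and 3728 in control rats. Eci1 groups were apart in EOM and overlapped by 1 EAMG array in DIA and in EDL. Eci2, a related isomerase that is also peroxisomal, had an averaged change of -0.03 (SE 0.08, adjusted p = 0.832).

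The 3 genes of electron transfer, Etfa and Etfb for the 2 subunits of electron transfer flavoprotein and Etfdh for its dehydrogenase, did not pass. Their averaged log2 changes were -0.01 for Etfa, -0.09 for Etfb and 0.20 for Etfdh, with SE of 0.07, 0.07 and 0.11, and in none of them was the unadjusted p under 0.05. In EOM the Etfb signals were 9692, 8558 and 8379 in EAMG rats, all below the 10675, 10155 and 10325.5 of control rats. Of the nuclear receptors, Ppard was just short of the threshold, with an averaged change of 0.23 (SE 0.08, adjusted p = 0.0585). In EDL the Ppard signals were 761, 619 and 659 in EAMG rats and 543, 538 and 536 in control rats, which did not overlap. Ppara was at or below 108.7 on every array, and no test of it was made.

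The uncoupling proteins Ucp2 and Ucp3 lie side by side in the rat genome. Ucp3 is the form of skeletal muscle and is known to follow fatty acid supply in rodents. DIA signals of Ucp3 were 1585, 1596 and 2872 in EAMG rats and 498, 331 and 1044 in control rats. EDL signals of Ucp3 were 2308, 3628 and 4143 in EAMG rats and 1226, 1959.6 and 2761 in control rats, and EOM signals 3839.8, 3978 and 4026 in EAMG rats and 1239, 1284 and 1904 in control rats. The groups were apart in DIA and EOM and overlapped by 1 EAMG array in EDL. The 3 EOM EAMG arrays lay close together, while the DIA arrays of both treatments were widely spread. The averaged log2 change was 1.35 (SE 0.22, adjusted p = 0.000982), a fold of 2.55, and the change in DIA was 1.80 (SE 0.38, adjusted p = 0.0252), which did not pass without DIA EAMG replicate 2 (adjusted p = 0.0709) or replicate 3 (0.0906). A second Ucp3 probe set gave an averaged change of 1.46 (SE 0.27, adjusted p = 0.00207). Ucp2, which many tissues and immune cells express, had an averaged change of -0.21 (SE 0.11, adjusted p = 0.193), and in EOM its signals were 794, 831 and 992 in EAMG rats, all below the 1306, 1067 and 1274 of control rats.

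PPARs bind DNA with the retinoid X receptor at a direct repeat, here searched as the letters AGGTCA, any 1 base, and AGGTCA again, and other nuclear receptors bind a single AGGTCA. RefSeq windows (GRCr8, 250 bases before to 50 after the start) were found for 31 of the 36 genes and searched on both strands. The direct repeat was in 0 of the 31 windows, and in 0.0583% of all 27457 windows of this length. At so low a share 0 matches were likely for any 31 windows, so their absence says nothing about receptor sites. Sites with other letters or outside the windows were not searched. The single AGGTCA, which any direct repeat also contains, was in 7 of the 31 (22.6%), and in 15.7% of all windows. The windows of Ucp3 and Slc27a1 are shown because, of the 3 genes that rose and held this motif, they had the largest averaged changes. The motif is printed in capitals as AGGTCA or as its reverse complement. The Ucp3 window is chr1:164227660-164227959 on the plus strand, with motifs that begin at -155 and -50 from the start. The Slc27a1 window is chr16:18312717-18313016 on the plus strand, with a motif on the opposite strand at -242.
Ucp3: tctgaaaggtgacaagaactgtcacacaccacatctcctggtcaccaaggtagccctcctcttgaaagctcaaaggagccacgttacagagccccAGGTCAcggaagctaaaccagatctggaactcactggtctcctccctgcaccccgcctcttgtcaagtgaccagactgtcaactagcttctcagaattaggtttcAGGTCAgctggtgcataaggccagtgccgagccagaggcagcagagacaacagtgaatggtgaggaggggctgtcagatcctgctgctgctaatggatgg
Slc27a1: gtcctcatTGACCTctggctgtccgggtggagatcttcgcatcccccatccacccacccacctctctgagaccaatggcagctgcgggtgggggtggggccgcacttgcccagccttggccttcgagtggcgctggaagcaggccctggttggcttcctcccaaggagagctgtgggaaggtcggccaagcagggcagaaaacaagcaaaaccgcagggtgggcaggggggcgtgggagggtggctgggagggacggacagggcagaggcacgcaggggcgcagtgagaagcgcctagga
The other gene that rose, Eci1, held it at -94 on the opposite strand, and the windows of Acadvl, Echs1, Hadhb and Eci2 held it too. A match of letters describes the sequence and was not tied to binding.

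Within single muscles fewer genes passed than in the average. In DIA 5 of the 34 genes passed (2.68% of all probe sets), 5 of them higher (1.53%) and 0 lower (1.15%). These were Ucp3, Mlycd, Acsl4, Slc27a1 and Decr1. In EDL 5 passed (6.59% of all probe sets), 4 higher (3.37%) and 1 lower (3.22%), namely Mlycd, Decr1, Acadl, Ehhadh, which was chosen by this group, and, lower, Acsl6. In EOM 3 passed (1.5% of all probe sets), 3 higher (0.964%) and 0 lower (0.531%), namely Acsl5, Slc27a1 and Ehhadh. With the replicate number as a block 5 passed in EOM, with Mlycd and Ucp3 added, and 7 in EDL, with Cd36 and Slc27a1 added. At an unadjusted p under 0.05 by limma there were 16 genes in DIA (19.9% of all probe sets), 13 in EDL (23.7%) and 16 in EOM (13.1%), of which 15, 10 and 15 were higher in EAMG. All 3 EAMG arrays lay above the control arrays for 13 genes in DIA (13.3% of all probe sets), 8 in EDL (12.6%) and 17 in EOM (12.5%), and below them for 1 gene in DIA (11.1%), 3 in EDL (12.4%) and 3 in EOM (11.9%).

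The counts within a muscle rested on single arrays. In DIA 0 genes passed without EAMG replicate 2, EAMG replicate 3, control replicate 1 or control replicate 2, and 2 without control replicate 3. At an unadjusted p under 0.05 the 4 fits that gave 0 had 8 or 9 genes. In EDL 1 gene passed without EAMG replicate 2, EAMG replicate 3 or control replicate 1, 2 without control replicate 2, 8 without EAMG replicate 1, and 3 without any 1 of the DIA or EOM control arrays. In EOM 1 gene passed without EAMG replicate 2, control replicate 2 or control replicate 3, and 5 without EDL EAMG replicate 3. With both arrays of low poly-A signal left out, the 5 DIA calls, Acadl and Decr1 in EDL and Ehhadh in EOM no longer passed. Mlycd in EDL was the single call within 1 muscle that all 18 fits without an array kept, and the others were kept in 5 to 17 of them, least often Acadl in EDL and Ehhadh in EOM (5 each). All 15 calls of the average over muscles were kept in each of those 18 fits. Each fit left out 1 array and not all arrays of a pool.

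The changes of the 3 muscles were also set against each other. For EDL minus DIA 0 of the 34 genes passed, as did 0.0163% of all probe sets, and at an unadjusted p under 0.05 by limma the count was 1, Acsl3 (5.31% of all probe sets). For EOM minus DIA 0 passed (0.0163% of all probe sets), and 2 had an unadjusted p under 0.05 by limma, Acsl5 and Hadh (6.5%). For EOM minus EDL 1 gene passed, Acsl5 (0.106% of all probe sets), and 4 had an unadjusted p under 0.05 (10.1%), all with the larger value in EOM. The Acsl5 call was kept without DIA control replicate 3, EDL EAMG replicate 1, EDL control replicate 3 or EOM EAMG replicate 2 and lost without any 1 of the other 14 arrays, with adjusted p up to 0.136. The call was also lost with no signal minimum (adjusted p = 0.226) and with those muscles fitted alone (0.102). For no other gene was a difference between muscles in its response shown.

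The control muscles themselves differed in these genes. In control DIA against control EDL, 26 of the 34 genes were higher and 3 lower, which is 85.3% of them, where 24.8% of all probe sets passed (14.1% higher and 10.8% lower). The median log2 difference was 0.73, against 0.04 for all probe sets. The largest differences upward were in Slc27a1 (1.55, adjusted p = 3.65e-05), Fabp3 (1.32, adjusted p = 6.59e-05) and Cpt1a (1.31, adjusted p = 0.000996). Fabp3 signals were 28893, 23949 and 29112 in control DIA and 9749, 9672 and 13648 in control EDL. The genes lower in DIA were Acsl6 (-2.47, adjusted p = 1.04e-05), Ucp3 (-1.76, adjusted p = 0.00429) and Acsl3 (-1.20, adjusted p = 0.000918). All 10 slow-fibre genes were higher in control DIA than in control EDL, with a median of 1.43. Of 8 adipocyte genes 6 were higher and 0 lower there, with a median of 2.17, and the part of either in the set's difference was not tested. Of 17 genes of the citric acid cycle and respiratory chain 0 were higher and 2 lower, with a median of 0.01.

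In control EOM against control EDL, 17 of the 34 genes passed, which is 50% of them, where 41.4% of all probe sets passed. Of these 15 were higher (23.1% of all probe sets) and 2 lower (18.3%), with a median of 0.31, against 0.05 for all probe sets. Slc25a20, the carnitine-acylcarnitine carrier, differed most (1.67, adjusted p = 6.65e-06), with 3857, 3784 and 4065 in control EOM and 1089, 1153 and 1465 in control EDL. Slc27a1 (1.51) and Cpt1a (1.22) followed. The genes lower in EOM were Hadh (-1.47, adjusted p = 5.5e-06) and Acsl6 (-1.42, adjusted p = 0.000339). In control EOM against control DIA, 12 genes passed (21.3% of all probe sets), 3 higher (10.6%) and 9 lower (10.7%), with a median of -0.20, against 0.01. Ucp3 (1.38, adjusted p = 0.0177), Acsl3 (1.37, adjusted p = 0.000216) and Acsl6 (1.05, adjusted p = 0.00659) were the genes higher in EOM. The largest differences downward were in Hadh (-2.30, adjusted p = 9.67e-08), Eci1 (-0.74, adjusted p = 0.00112) and Cpt1b (-0.67, adjusted p = 0.00156). For Hadh this meant 2069.6, 1906 and 1982 in control EOM and 10314, 8381 and 10779.5 in control DIA, the widest gap of any gene of the set in that comparison. Against control EDL, all 7 macrophage genes tested were higher in control EOM, and of 12 skeletal muscle fibre genes 8 were lower and 0 higher. Against control DIA, 7 of 10 slow-fibre genes were lower and 1 higher, and 4 of 8 adipocyte genes lower and 1 higher. The part of these in the set's differences was not tested.

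**Figure D3:**
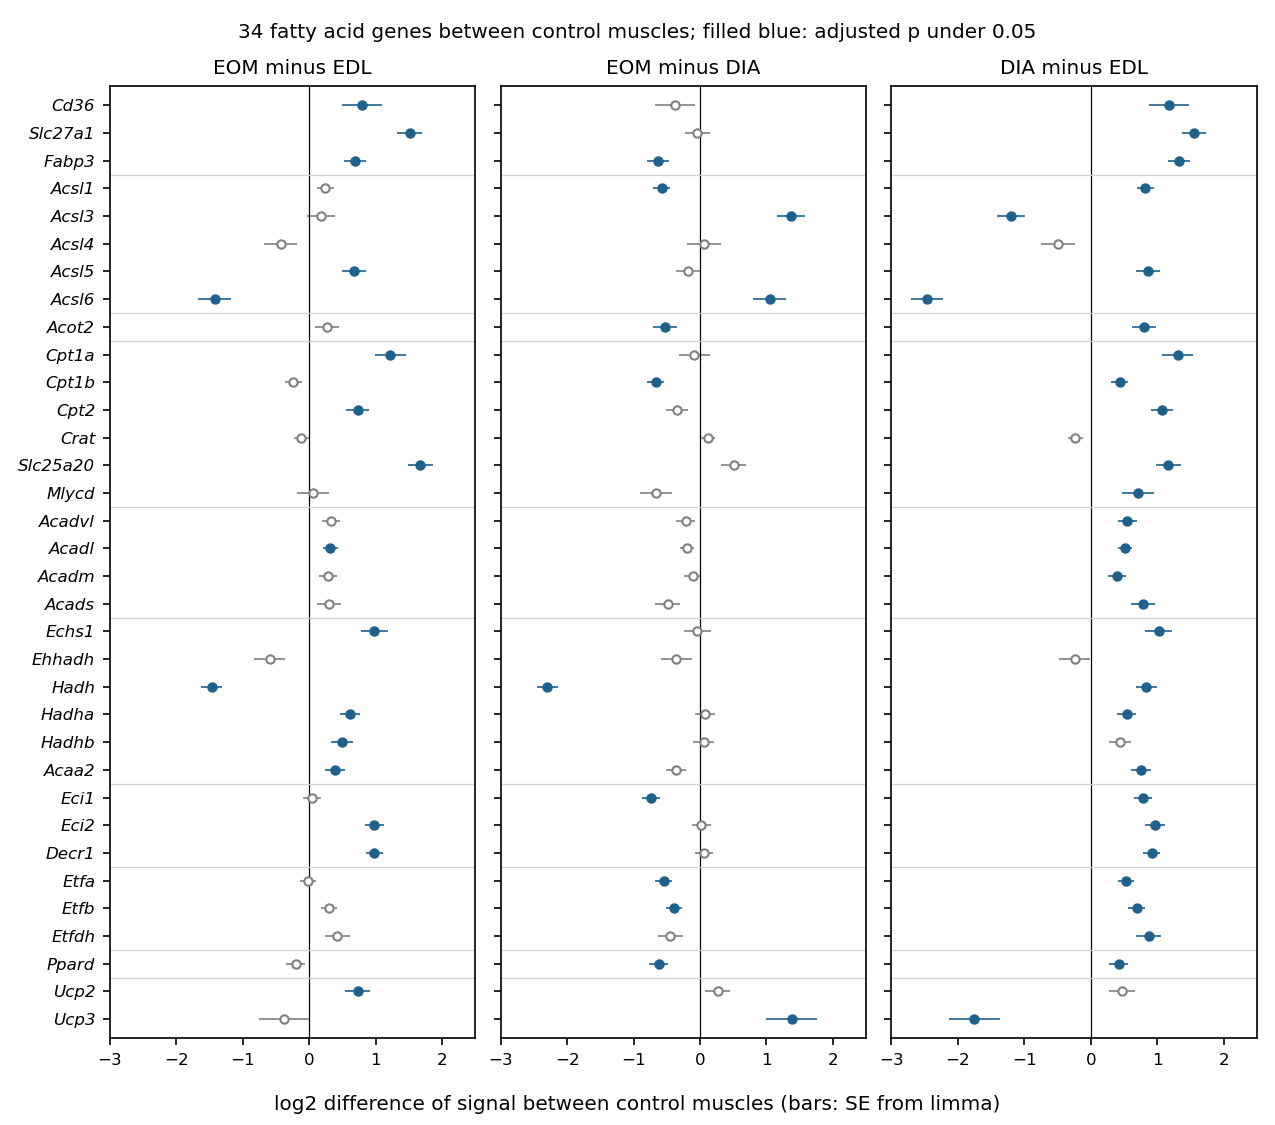
Log2 difference of signal between control muscles for the 34 genes tested, as EOM minus EDL, EOM minus DIA and DIA minus EDL. Points are limma estimates, bars are their SE, and filled blue points passed at an adjusted p under 0.05. In the panel for DIA minus EDL 26 points passed to the right of 0, and Acsl6, Acsl3 and Ucp3 passed to the left.

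Further genes of lipid and fuel use were taken from 5 lists of 87 genes, of which 73 were tested. Of 15 genes for stored triglyceride and lipoprotein lipid, 5 rose and 1 fell on average, where 10.5% of all probe sets were higher and 9.93% lower. Angptl4, an inhibitor of lipoprotein lipase, rose by 3.21 (SE 0.30, adjusted p = 1.82e-05), Pnpla2, the lipase that opens triglyceride stores, by 1.16 (adjusted p = 1.65e-05), and the lipid droplet genes Plin5 and Plin4 by 0.80 and 0.67. Dgat2, which makes triglyceride, rose by 0.90, and G0s2, an inhibitor of the Pnpla2 lipase, had a change of -0.63 (adjusted p = 0.0422). Of 23 genes of fuel choice and its regulators, 4 rose and 4 fell, against the same 10.5% and 9.93%. Pdk4, which holds back pyruvate oxidation, rose by 1.40 (SE 0.15, adjusted p = 4.2e-05), Txnip, which limits glucose uptake, by 0.75, Klf15, a transcription factor, by 0.75, and Lpin1, a phosphatase and coactivator, by 0.37. Those with a negative change were Ppargc1b, a coactivator of mitochondrial genes (-0.96, adjusted p = 0.000102), Prkaa2, a catalytic subunit of AMP-activated kinase (-0.94), and the nuclear receptors Rxrg (-0.36) and Esrrg (-0.34).

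The other 3 lists were peroxisomal genes, further mitochondrial genes, and transport, and their counts stand beside the 20.4% of all probe sets that passed on average (10.5% higher and 9.93% lower). Of 11 peroxisomal genes, 2 rose, Pex11a, which divides peroxisomes (0.76), and Amacr, a racemase (0.29), and 2 had a negative change, Abcd2, a transporter (-0.51), and Scp2, a sterol carrier (-0.21). In EOM Pex11a rose by 1.83 (adjusted p = 0.0113). Of 13 further mitochondrial acyl-CoA and ketone genes, 2 rose, Acad11 (0.66) and Pccb (0.29), and Oxct1, which activates ketone bodies, had a change of -0.53 (adjusted p = 0.00136). Bdh1, of ketone body oxidation, rose in EDL by 1.75 (adjusted p = 0.0371). Of 11 transport and binding genes, 0 rose and 1, Cav1 of caveolae, had a lower level (-0.26), while Fabp5 rose in EOM by 1.55 (adjusted p = 0.0111). The median log2 changes were 0.19 for the triglyceride list, -0.02 for fuel choice, 0.05 for peroxisomes, 0.03 for the further mitochondrial genes and -0.01 for transport, beside 0.17 for the set and 0.01 for all probe sets.

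The citric acid cycle and respiratory chain, which take the products of beta-oxidation, were lower in EAMG wherever they passed. All 17 genes tested had averaged changes below 0, from -0.72 to -0.09, and 8 of them passed, against 9.93% of all probe sets. The lowest was Cox5a, a subunit of cytochrome c oxidase (-0.72, SE 0.13, adjusted p = 0.00206). Their summed signal was 221758 to 258744 in EAMG rats and 262085 to 288260 in control rats in DIA, and 234235 to 253188 in EAMG rats and 274160 to 293901 in control rats in EDL, without overlap. In EOM it was 212335 to 280429 in EAMG rats and 272804 to 276734 in control rats, which overlapped.

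**Figure D4:**
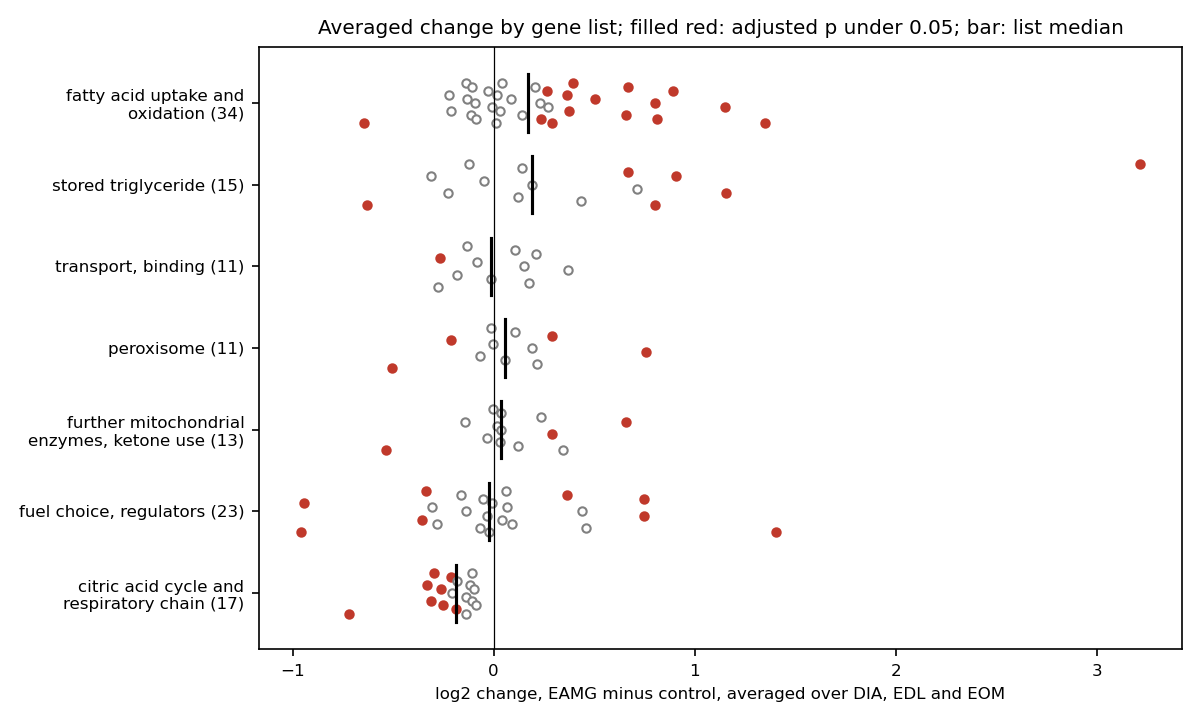
Log2 change of signal, EAMG minus control, averaged over DIA, EDL and EOM, for the genes tested in the set and in 6 other lists. Each point is a gene, filled red points passed at an adjusted p under 0.05, and the vertical bar is the median of the list. The points of the citric acid cycle and respiratory chain all lie left of 0, with a median of -0.19, and that of the fatty acid genes is 0.17.

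Markers of other cells in the muscle were read beside the set. Of 8 adipocyte genes tested 1 rose on average, Cidea, and the summed signal of all 10 adipocyte genes in DIA was 12843 to 27144 in EAMG rats and 11636 to 19331 in control rats. In EDL it was 6065 to 8421 in EAMG rats and 5547 to 6734 in control rats, and in EOM 10706 to 11442 in EAMG rats and 9384 to 11005 in control rats. These ranges overlapped in each muscle. The highest adipocyte sum was on DIA EAMG replicate 2, an array of low poly-A signal. Of 7 macrophage genes tested 1 rose on average, Cd163. In DIA all 7 had a change above 0, with a median of 0.57 and 0 passing, and the sums over 10 genes, given with Cd36, did not overlap there, while they overlapped in EDL and EOM. Of 6 orbital lipid gland genes tested all had a change above 0 in EOM, with 1 passing and a median of 0.91. The EOM sums of EAMG and control rats given with Acsl5 did not overlap. Of 11 endothelial genes 1 rose, Cldn5, and Emcn had a negative change. All 3 red blood cell genes tested were lower in EAMG on average, with a DIA sum over 4 genes of 2301 to 5499.9 in EAMG rats and 13457 to 20183 in control rats. Fibre-type genes were also read. In DIA the summed signal of 10 slow-fibre genes was 192056 to 224600.3 in EAMG rats and 230540.4 to 247128 in control rats, and that of 10 fast-fibre genes was 226294 to 240467 in EAMG rats and 268906 to 282869 in control rats. In EOM the slow-fibre sum was 90802 to 104776 in EAMG rats and 108919 to 114009 in control rats. None of these ranges overlapped, and all 10 slow-fibre and all 10 fast-fibre genes had a change below 0 in DIA, 1 of each list passing. In EDL 9 of 10 slow-fibre genes had a change above 0 (median 0.47), and all 10 fast-fibre genes one below it. The slow-fibre sum in EDL was 89036 to 277804 in EAMG rats and 84104 to 101097 in control rats. These EDL sums overlapped, as did the fast-fibre sums in EDL and in EOM. The part of these cells and fibre types in the changes of the set was not tested.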

How the data were processed

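Muscle RNA was measured on 18 Affymetrix rat arrays. The deposited values are signal intensities from the Affymetrix software GCOS 2.0, in which the authors summarized each probe set and scaled all arrays to the same trimmed mean. They were used on the log2 scale without further normalization. Fits were made with limma 3.58.1 in R 4.3.3 over all 18 arrays, with muscle and treatment as 6 groups, in place of the change calls of the study's software, and p values were adjusted by Benjamini-Hochberg. The methods state that the study was repeated to give the replicates, without tying the numbers to repeats. Deviations of same-numbered EAMG and control arrays correlated between -0.0265 and 0.342 (over 0.1 for all 3 EDL pairs, under it for 1 pair in DIA and 1 in EOM). Their mean was 0.149, against -0.0743 for arrays of different number. Between muscles of a treatment the means were 0.103 for the same number and -0.052 for different numbers. Deviations cancel out within a group, so the means for different numbers follow largely from those for the same number. Between EOM and EDL of EAMG rats the same-number correlations were all negative (-0.0492, -0.120 and -0.200). Between EDL and DIA of control rats they were all positive (0.0503, 0.367 and 0.390). The highest, 0.469, was between both arrays of low poly-A signal. Arrays of the same number were thus more alike on average only, and the main fit did not use this. The fit without a block had been set in the design and was kept, with the block given beside it. The code was tested on simulated data. The number of arrays limits the precision. Of 31042 probe sets, 20826 carried 1 gene symbol, and 9780 with none and 436 with several were not named. Values on every array are given for the genes that passed in any EAMG comparison, and for other genes in the muscles where their groups separated. In control muscles the 3 largest differences each way are named. From each other list, the rule named the 2 to 4 most changed genes that passed in a muscle, and the genes that passed on average were added after their values were seen. Members and lists were chosen with earlier results of these data known. Alternatives changed the signal minimum, scaling, offset, arrays fitted, blocks, arrays left out and probe sets.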

Additional observations from a re-analysis of the deposited data

Results flagged for a closer look

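Acsl5 was the gene for which a test of the difference between muscles in the EAMG response passed: the log2 change in EOM minus that in EDL was 1.44 (SE 0.25, limma adjusted p = 0.0413). All 3 EOM EAMG arrays were above their controls, and 2 of 3 EDL EAMG arrays were below all of theirs. Of 18 fits, each without a single array, 4 kept the call, and it was lost with no signal minimum (adjusted p = 0.226) and with those muscles fitted alone (0.102). All 6 EDL signals were under the minimum of 400. In EOM the summed signal of 8 orbital lipid gland genes was 12609 to 14190 in EAMG rats and 6279 to 8234 in control rats. In control DIA it was 9233 to 21687 and in control EDL 8113 to 9852, so it was not higher in control EOM. The part of these genes in the Acsl5 difference was not tested.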

How the results depend on the processing

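In the average over muscles the count of fatty acid genes that passed was 15 as reported and 10 with no signal minimum (4.08% of all probe sets). It was 13 with both arrays of low poly-A signal left out, and 14 with the minimum required on 3 arrays, where Ehhadh was not tested. With the replicate block it was 16, and with quantile normalization, with 100 added or with the pool as a random block it was 15. Counting a gene when any of its probe sets passed also gave 15. That count could not be lower, since the probe set reported was among them. Cd36 and Crat lost their calls with no minimum and without the low poly-A arrays, and Acot2, Acadl and Eci1 with no minimum. None of the 29 calls on single genes in these EAMG comparisons changed sign under a setting that kept the probe set, while the second Acot2 probe set had an averaged change of -0.07.

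Counts within a muscle moved more. With no signal minimum they were 0 in DIA, 1 in EDL, 0 in EOM and 0 for EOM minus EDL (at an unadjusted p under 0.05 by limma, 10 in DIA, 14 in EOM and 3 for EOM minus EDL). Fitted on the compared muscles alone they were 0 in DIA, 0 in EDL, 4 in EOM and 0 for EOM minus EDL (unadjusted 12 in DIA, 9 in EDL and 4 for EOM minus EDL). Quantile normalization gave 7 in EOM, the replicate block 5 in EOM, and adding 100 gave 1 for EOM minus DIA. Without the low poly-A arrays 0 passed in DIA (unadjusted 9) and 3 in EDL. Leaving out 1 array at a time gave 0 to 6 in DIA, 1 to 8 in EDL, 1 to 5 in EOM, 15 to 16 on average, 0 to 1 for EOM minus EDL, 23 to 30 for control DIA against EDL, 9 to 14 for control EOM against DIA and 13 to 19 for control EOM against EDL.

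The replicate number as a block was an alternative. With the replicate block, 5 genes passed in DIA and 7 in EDL, and on average Ppard was added. Why these counts moved was not tested.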
